A study of Homo sapiens with 24 samples.

Results

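The response of SUM149PT cells to estradiol and the histone deacetylase inhibitor CG-1521 given together was compared with the response to vehicle. SUM149PT is an established human line from an inflammatory breast cancer, a fast-growing kind of breast cancer that spreads through lymph vessels of the skin. The 6 arrays compared, of 24 in all, were chosen by their titles: 3 of cells given 10 nM 17β-Estradiol with 7.5 µM CG-1521 and 3 of cells given the solvents ethanol and DMSO, each for 48 h. The other 18 arrays hold the 2 single treatments of SUM149PT and the same 4 treatments of a second line, SUM190PT, with 3 arrays per group. Every SUM149PT group shared a medium with serum, insulin and hydrocortisone, and the labels list the line as ER(-) with a mutated p53 gene. The estradiol group received 10 nM 17β-Estradiol and the CG-1521 group 7.5 µM CG-1521. SUM190PT received 5 µM CG-1521 with 10 nM 17β-Estradiol in medium that held no serum during treatment, so line, dose and medium change together in any comparison with it. Each group is 1 cell line grown in dishes, and its 3 arrays came from independent experiments, per the series' design text.

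Histone deacetylases strip acetyl marks off histone tails and off many other proteins, and inhibitors of them raise acetylation across chromatin. In cultured tumour cells such inhibitors are known to raise CDKN1A, which codes for the cyclin-dependent kinase inhibitor p21, and to hold cells out of division. Estradiol acts mainly through the nuclear receptors ESR1 and ESR2, which bind DNA and switch genes on or off, and a membrane receptor, GPER1, has also been described. The combination in a line labelled ER(-) therefore asks whether the hormone changes the response to the inhibitor.

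The Affymetrix Human Gene 1.0 ST array was used for RNA, and it gave a log2 expression value for 18417 genes. A difference of 1 on this scale is a 2-fold change, and a gene was said to rise or fall when its adjusted p from limma, a linear model fitted across all genes, was under 0.05. Correlations between arrays of a group ran from 0.9946 to 0.996 in the 4 SUM149PT groups and from 0.9807 to 0.9957 in SUM190PT. No array of SUM149PT stood apart from its group, and 0 arrays were identical. The third vehicle array of SUM190PT did stand apart, with a median of 6.65 over 35 kinetochore genes where the others had 7.91 and 7.36, and list counts and calls between the lines are given with and without it. The RNA on an array comes from a whole dish, so fewer cells of a kind and less RNA per cell cannot be told apart.

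Against vehicle, 6848 of the 18417 genes changed with the combination, which is 37.2% of all genes tested. Of these 2990 (16.2%) rose and 3858 (20.9%) fell. At 2-fold or more, 294 genes (1.6%) rose and 595 (3.23%) fell. The median change over all genes was 0.03 (log2). In 8573 genes (46.5%) no combination array overlapped with any vehicle array (21.9% above, 24.7% below), and this held for every one of the 889 genes past 2-fold. Counts per list are to be read against these shares, since a large part of all genes passed. Quantile normalization of the arrays, which moved the share of rises among the changed genes from 43.7% to 50.2%, gave 3334 rises and 3313 falls.

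The 20 largest rises began with SPX, AKR1B10, AGR2 and CLGN. SPX, the gene of the secreted peptide spexin, read 3.88, 3.76 and 3.91 in the vehicle arrays and 7.42, 7.73 and 7.98 in the combination arrays. The rise was at least 3.86 (log2, SE 0.135, limma adjusted p = 2.395e-11). AKR1B10, an aldo-keto reductase that reduces retinal and reactive aldehydes, went from 3.70, 3.75 and 3.85 to 7.51, 7.57 and 7.50, at least 13.6-fold. In both genes the groups lay far apart and the arrays within a group close together. No detection call was used here, and both genes read under 4 in vehicle, at the low end of the scale where signal and background are not separated, as did MMP1 among the 20. Their rises are lower bounds, and their rank among the 20 is not fixed. AGR2, a protein disulfide isomerase of the endoplasmic reticulum, rose by 3.75 (SE 0.127) and CLGN, a chaperone of the same compartment, by 3.70 (SE 0.129). C1S, a protease that starts the classical complement pathway, rose 11.3-fold. Its vehicle arrays read 4.82, 5.02 and 4.84 and its combination arrays 8.47, 8.32 and 8.38. In vehicle AGR2, CLGN and C1S read near the median levels of endothelial (4.36 to 4.50) and fibroblast (4.97 to 5.12) markers. A culture of this line should not hold such cells. The rises of AGR2, CLGN and C1S may therefore be lower bounds too, and their ranks may not be fixed. Among the other 20 largest rises were the cystine transporter SLC7A11 (3.43), the EGFR ligands EPGN (3.16) and HBEGF (2.63), the cytokine IL24 (3.04), the iron-binding lipocalin LCN2 (2.71), the collagenase MMP1 (at least 2.54), the elastase inhibitor PI3 (2.51) and WIPI1 (2.50), which takes part in forming autophagosomes. NMRAL2P (3.07), MLLT11 (3.05), LURAP1L (2.83) and CYP4F11 (2.63) were also among them, with the aldo-keto reductases AKR1C1, AKR1C2 and AKR1C3.

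The 20 largest falls began with EFEMP1, RARRES1, CASP14 and H2BC14. EFEMP1, a glycoprotein of the extracellular matrix, read 10.15, 9.98 and 10.27 in vehicle and 7.03, 6.43 and 6.76 in the combination, a fall of 10.5-fold (limma adjusted p = 4.287e-11). RARRES1, a membrane protein first found as a retinoid response gene, fell 9.55-fold, and its vehicle arrays spread more widely, at 9.73, 9.84 and 9.16. CASP14, a caspase of skin cornification, fell by 3.11 (SE 0.181). All 20 were picked from genes whose groups did not overlap. TGFB2, a ligand of the TGF-beta family, went from 10.54, 10.31 and 10.39 to 7.81, 7.42 and 7.36. ID3, an inhibitor of basic helix-loop-helix factors, fell by 2.62 and TGFBI, a matrix protein induced by TGF-beta, by 2.49. The serine protease FAP fell by 2.39, and CDH2, the gene of N-cadherin, fell by 2.37. With H2BC14 counted, 7 of the 20 were histone genes. The rest were the division genes KIF20A, NDC80, KIF11 and ANLN, and DEPDC1B (-2.24).

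**Figure D1:**
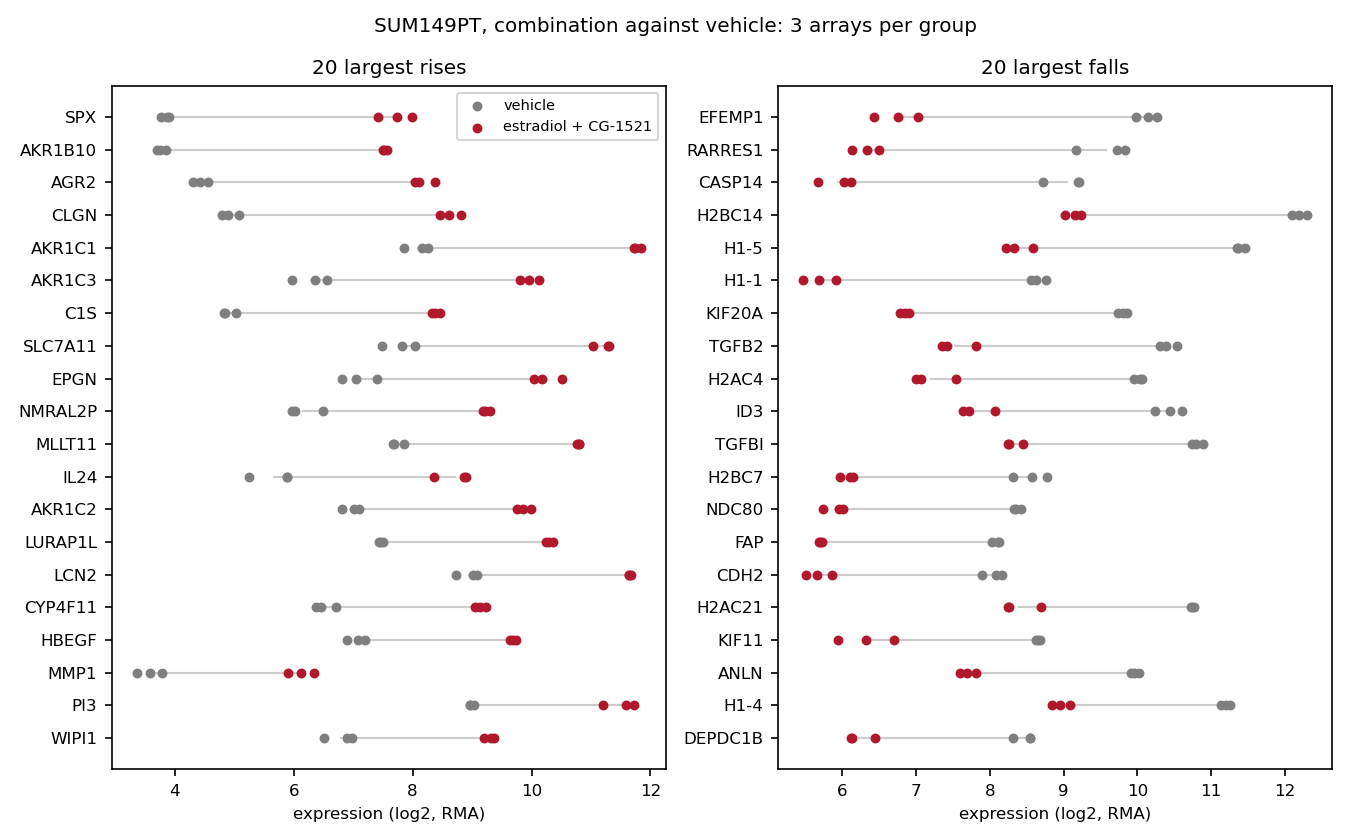
Log2 expression of the 20 genes with the largest rises (left) and the 20 with the largest falls (right) in SUM149PT, with 1 point per array for vehicle (grey) and for estradiol with CG-1521 (red), and a line joining the group means. All 40 were picked from genes whose 3 combination arrays lie on one side of the 3 vehicle arrays. The distance between the groups, from 2.24 to 3.86, exceeds the spread within each.

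Genes of mitosis fell together. All 13 measured kinesins of the spindle fell, with a median of -2.01 (log2) against 0.03 over all genes, and 12 of them by 2-fold or more. KIF20A, which moves the central spindle during cytokinesis, read 9.86, 9.74 and 9.80 in vehicle and 6.85, 6.91 and 6.79 in the combination, a fall of 7.73-fold. KIF11, the motor that pushes spindle poles apart, fell 5.05-fold, from 8.66, 8.68 and 8.63 to 6.70, 6.32 and 5.94. The combination arrays of KIF11 spread over more than those of KIF20A. Both genes are among the 20 largest falls, which were picked from genes whose groups did not overlap. Of 35 kinetochore and spindle checkpoint genes 33 fell and 0 rose (median -1.69). NDC80, which anchors microtubules at the kinetochore, fell by 2.46 and CENPF by 2.21. Cytokinesis genes gave 18 falls and 0 rises among 20 (median -1.73), with ANLN, the actin-binding protein of the cleavage furrow, at -2.26 and the kinase PLK1 at -2.10. Of 22 cyclins and division kinases 19 fell and 0 rose. The mitotic cyclin CCNB2 fell by 2.12 and its kinase CDK1 by 1.98. BIRC5, the gene of survivin, which sits in the chromosomal passenger complex, fell by 1.80 (SE 0.08).

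Most transcription factors tied to proliferation were lower as well, and a link between their falls and those of the mitotic genes was not tested. Among 18 proliferation transcription factors 12 fell and 1 rose (median -0.73). MYBL2, a subunit of the complex that activates mitotic genes, went from 9.78, 9.87 and 9.84 to 7.77, 7.66 and 7.50, and FOXM1, which acts with it, from 9.75, 10.01 and 10.05 to 8.23, 8.04 and 8.28. LIN9, a core subunit of the same complex, fell by 1.47. Mitotic genes are known to carry, near their start sites, a short element called CHR, to which that complex binds. The promoters of the kinesins KIF20A and KIF11 are shown because these are the division genes with the largest falls whose 250 bases before the start site hold that element. The capitals mark TTTGAA or TTTAAA, read on either strand. Sequences and positions are RefSeq's on GRCh38.p14, 5′ to 3′ on the gene's own strand; KIF20A lies on the plus strand at chr5:138178862-138179111 and KIF11 on the plus strand at chr10:92592880-92593129.
KIF20A: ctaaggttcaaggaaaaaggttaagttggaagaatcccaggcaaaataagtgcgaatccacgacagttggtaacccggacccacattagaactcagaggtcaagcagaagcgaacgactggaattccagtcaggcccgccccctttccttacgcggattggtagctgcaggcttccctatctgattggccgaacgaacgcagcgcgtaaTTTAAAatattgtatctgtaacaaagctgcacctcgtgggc
KIF11: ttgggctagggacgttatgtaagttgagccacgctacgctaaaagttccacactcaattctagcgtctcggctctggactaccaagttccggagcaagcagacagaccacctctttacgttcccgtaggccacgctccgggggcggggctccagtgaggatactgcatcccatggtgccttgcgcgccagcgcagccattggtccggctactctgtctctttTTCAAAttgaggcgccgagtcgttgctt
The first base of the element stood at -41 from the start site in KIF20A and at -28 in KIF11, where it runs on the opposite strand. Of 90 measured genes of the 4 lists of mitotic machinery 73 had a promoter in the table. The element lay in 33 of these (45.2%), against 22.1% of all 27305 promoters and 17.5% of those of measured genes. The letters CCAAT, a box bound by the factor NF-Y, were present in 48 of the 73 (65.8%). The share was 33.0% of all promoters and 34.4% of those of measured genes. Both searches read both strands, and a match is a description of the letters, not of binding.

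DNA replication genes fell with the mitotic ones. All 26 replication fork genes fell (median -1.31), as did 22 of 24 genes of the replicative helicase and the origins, where 1 rose (median -1.30). CLSPN, which relays the checkpoint signal at stalled forks, fell by 1.98, the polymerase subunit POLE2 by 1.92 and the topoisomerase TOP2A by 1.91. MCM10, needed to start the helicase, fell by 1.85 and the origin kinase CDC7 by 1.89. Of 10 genes that make deoxynucleotides 9 fell and 1 rose (median -1.13). TYMS, which makes thymidylate, read 10.46, 10.49 and 10.53 in vehicle and 8.53, 8.44 and 8.38 in the combination. TK1, which salvages thymidine, fell by 1.80. All 21 measured genes of homologous recombination and the Fanconi pathway fell (median -1.14), with the helicase BLM at -2.07 and the nuclease EXO1 at -1.84.

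Histone genes gave some of the largest falls. Of 7 linker histones, which clamp DNA as it leaves the nucleosome, 5 fell and 0 rose (median -1.97). H1-5 went from 11.37, 11.46 and 11.36 to 8.59, 8.22 and 8.33, a fall of 8.09-fold, and H1-1 fell by 2.96. Among core histone genes of the clusters, a group chosen after its values were seen, 39 of 52 measured genes fell, 29 of them by 2-fold or more, and 0 rose (median -1.19). The H2B gene H2BC14 read 12.10, 12.30 and 12.19 in vehicle and 9.23, 9.01 and 9.16 in the combination. H2AC4 fell by 2.82, H2BC7 by 2.48 and H2AC21 by 2.34. These genes are near-identical copies, and array probes may be shared among them, so values of single copies are uncertain. Their main transcripts end in a stem-loop and rise in S phase.

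Growth arrest genes moved in both directions. CDKN1A read 6.76, 7.16 and 7.12 in vehicle and 8.46, 8.51 and 8.49 in the combination, a rise of 2.78-fold (log2 1.47, SE 0.108, limma adjusted p = 3.422e-08). Its combination arrays lay close together and above every vehicle array. The list of CDK inhibitors and arrest genes gave 6 rises and 4 falls among 15 (median 0.22). SESN2, a stress-induced regulator of the kinase mTORC1, rose by 1.07 and GADD45A, induced by DNA damage, by 0.89, while CDKN3, a phosphatase that follows the cell cycle, fell by 1.36. Of 13 genes of the MYC, MAX and MXD network 2 rose and 4 fell. MXD1, which opposes MYC at its sites, rose by 1.59. The falls in the network numbered 1 under quantile normalization and 2 without the second combination array or the third vehicle array. Falls among the arrest genes numbered 2 without the second combination array or with all 24 arrays in 1 fit.

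**Figure D2:**
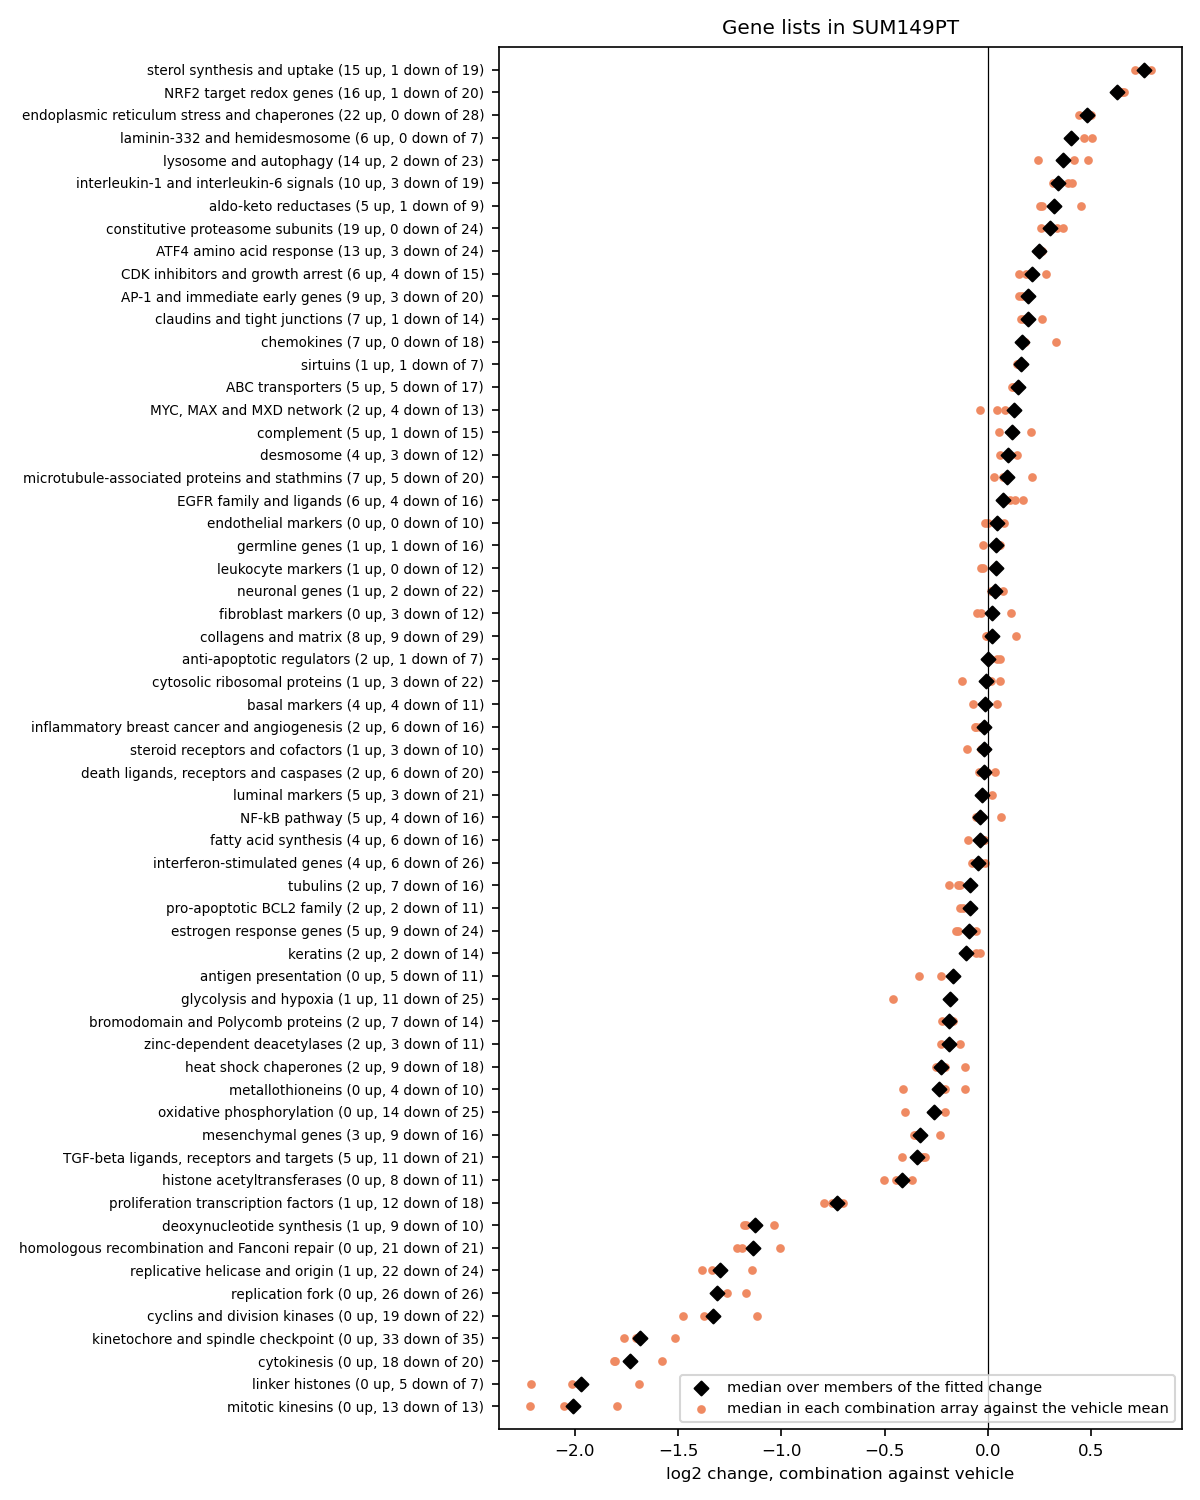
Median log2 change of the measured members of each of 60 gene lists, combination against vehicle in SUM149PT (black diamond), with the median in each of the 3 combination arrays against the vehicle mean (orange points) and the number of genes that rose and fell. Lists of division, replication and repair lie from -2.01 to -0.73, and sterol synthesis (0.75), NRF2 targets (0.63) and endoplasmic reticulum stress (0.48) lie at the other end.

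Genes of the enzymes that write and erase acetylation changed little in size, and over all genes 16.2% rose and 20.9% fell. Of 11 zinc-dependent deacetylases, the family that such inhibitors act on, 2 rose and 3 fell, and 0 passed 2-fold (median -0.19). HDAC9 rose by 0.99, from 4.72, 4.60 and 4.58 to 5.63, 5.64 and 5.59. Its vehicle arrays lay near the low end of the scale, so the rise of HDAC9 may be a lower bound. HDAC2 fell by 0.62 and HDAC1 by 0.59, while HDAC6 had a difference of 0.13 (limma adjusted p = 0.3214). Of 11 acetyltransferases 8 fell and 0 rose (median -0.42). HAT1, which acetylates new histone H4 before it is laid down, fell by 0.99 and KAT2A by 0.81. Of 7 sirtuins 1 rose and 1 fell, SIRT7 by 0.35 and SIRT1 by 0.56. Of 14 bromodomain, Polycomb and DNA methylation genes 2 rose and 7 fell. UHRF1, which brings the methyltransferase DNMT1 to newly copied DNA, fell by 1.58, DNMT1 by 1.05 and EZH2, the Polycomb methyltransferase, by 0.82. Of 22 neuronal genes 1 rose and 2 fell, and of 16 germline genes 1 rose and 1 fell, both below the share of all genes that changed.

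Stress responses of the endoplasmic reticulum were higher. Of 28 genes of endoplasmic reticulum stress and folding 22 rose and 0 fell (median 0.48), 7 of them by 2-fold or more. AGR2 went from 4.56, 4.42 and 4.31 to 8.11, 8.04 and 8.38, and CLGN from 5.08, 4.90 and 4.80 to 8.47, 8.61 and 8.82. Both were near the lower end of the scale in vehicle and stood far above it in all 3 combination arrays. DDIT3, the transcription factor CHOP, which is induced when unfolded protein stress persists, rose 4.08-fold. HERPUD1, which helps remove misfolded proteins, rose by 1.72 (SE 0.11). Its promoter is shown because it is the most changed named member that holds CCACG, the core bound by ATF6 and XBP1 in stress elements. The capitals mark that motif at 2 places on the printed strand, and the 250 bases come from chr16:56931892-56932141 (GRCh38.p14, plus strand).
HERPUD1: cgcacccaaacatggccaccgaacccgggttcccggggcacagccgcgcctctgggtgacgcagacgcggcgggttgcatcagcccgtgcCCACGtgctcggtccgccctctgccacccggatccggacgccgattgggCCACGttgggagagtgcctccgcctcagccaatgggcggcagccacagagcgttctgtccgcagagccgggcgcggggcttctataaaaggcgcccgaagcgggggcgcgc
Of 27 list members with a promoter 18 (66.7%) held CCACG on either strand, against 33.3% of all promoters and 39.7% of those of measured genes. The longer stress element, CCAAT and CCACG with 9 bases between them, was searched for after the data were seen and overlaps the shorter motif. It lay in 6 of the 27 (22.2%), in 0.0806% of all promoters and in 0.119% of those of measured genes. Those 6 genes were HSPA5, HSP90B1, CALR, CANX, CRELD2 and XBP1, and their differences ran from 0.11 (CRELD2) to 0.80 (HSPA5). They are named here after their values were seen, and 4 of the 6 passed the test. Only this exact spelling was searched, so a gene without a match, such as HERPUD1, may hold another form of the element.

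The amino acid response that the factor ATF4 controls gave 13 rises and 3 falls among 24 genes (median 0.25). With all 24 arrays in 1 fit the rises numbered 6. SLC7A11, which imports cystine for glutathione, read 7.48, 8.04 and 7.82 in vehicle and 11.03, 11.29 and 11.31 in the combination, which is 10.8-fold. ALDH1L2, a mitochondrial folate enzyme, rose by 1.50. ASNS, which makes asparagine, rose 2.06-fold, from 8.80, 8.91 and 8.80 to 9.79, 9.87 and 9.99. The ASNS promoter is shown because it holds TGATGNAA, the element bound by ATF4 with a C/EBP partner; the capitals mark it, in 250 bases from chr7:97872409-97872658 (GRCh38.p14, minus strand).
ASNS: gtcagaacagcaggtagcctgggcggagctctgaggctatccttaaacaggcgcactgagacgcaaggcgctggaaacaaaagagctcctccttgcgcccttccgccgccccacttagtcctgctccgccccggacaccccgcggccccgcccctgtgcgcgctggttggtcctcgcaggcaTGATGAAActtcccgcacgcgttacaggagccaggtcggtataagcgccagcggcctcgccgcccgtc
The element lay in 3 of 19 list members with a promoter (15.8%), against 3.19% of all promoters and 2.19% of those of measured genes, on either strand. The 3 were ASNS, CHAC1 and ATF3, and all rose, CHAC1 by 0.97 and ATF3 by 0.64; the latter 2 are named after their values were seen.

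Redox genes were higher, and some aldo-keto reductases by a wide margin. Of 20 targets of NRF2, the factor that answers oxidants and electrophiles, 16 rose and 1 fell (median 0.63). FTL, the light chain of the iron store ferritin, rose 3.19-fold, from 9.36, 9.38 and 9.27 to 11.04, 10.95 and 11.04. HMOX1, which breaks down heme, rose by 1.42 and ME1, a source of NADPH, by 1.43. The ME1 promoter is shown as the most changed named member that holds TGACNNNGC, the core of the antioxidant response element. The capitals mark it in 250 bases from chr6:83431052-83431301 (GRCh38.p14, minus strand).
ME1: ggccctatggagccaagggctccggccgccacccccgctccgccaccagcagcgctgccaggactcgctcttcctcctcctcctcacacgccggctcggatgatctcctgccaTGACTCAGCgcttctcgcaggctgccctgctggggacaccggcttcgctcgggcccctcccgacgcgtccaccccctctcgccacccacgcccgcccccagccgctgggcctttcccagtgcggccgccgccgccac
The motif lay in 6 of 24 promoters of the NRF2 and aldo-keto reductase lists (25.0%), read on both strands. The share was 11% of all promoters and 11.8% of those of measured genes. Among 9 aldo-keto reductases 5 rose and 1 fell (median 0.32), and 4 of the rises exceeded 2-fold. AKR1C1 went from 8.26, 8.16 and 7.86 to 11.72, 11.74 and 11.83, AKR1C3 from 5.97, 6.55 and 6.36 to 9.80, 10.12 and 9.96, and AKR1C2 from 7.10, 7.02 and 6.81 to 9.99, 9.76 and 9.86. The 3 enzymes reduce steroids, among them estrone and progestins. They are among the 20 largest rises, which were picked from genes whose groups did not overlap. Their genes are close copies that lie side by side on chromosome 10, so the array may not fully separate them.

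Cholesterol genes rose, and fatty acid genes did not move as 1 group. Of 19 genes of sterol synthesis and uptake 15 rose and 1 fell (median 0.75), 8 of them by 2-fold or more. MSMO1, an oxidase late in the pathway, read 9.39, 9.21 and 9.15 in vehicle and 11.55, 11.56 and 11.58 in the combination. HMGCS1, which makes the precursor of mevalonate, rose 4.44-fold, from 7.45, 7.44 and 7.12 to 9.57, 9.37 and 9.51. SC5D rose by 1.54 and the sterol carrier STARD4 by 1.31. TCACNCCAC, the sterol element bound by SREBP factors, lay in 1 of 17 promoters of the list (5.88%), that of SREBF2. The share was 0.875% of all promoters and 0.871% of those of measured genes. Of 16 fatty acid genes 4 rose and 6 fell (median -0.04). SCD, which makes monounsaturated fatty acids, rose by 0.93, whereas SCD5 fell by 0.79 and the elongase ELOVL6 by 0.75. The 6 falls became 3 and the 4 rises 2 with all 24 arrays in 1 fit, where the fall of ELOVL6 did not pass, and the rises became 7 under quantile normalization.

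Genes of protein disposal rose and most measured heat shock genes did not. Of 24 constitutive proteasome subunits 19 rose and 0 fell (median 0.30), none by 2-fold, with PSMC4 of the regulatory particle at 0.76 and the catalytic subunit PSMB5 at 0.61. Lysosome and autophagy genes gave 14 rises and 2 falls among 23 (median 0.37). SQSTM1, the receptor that brings ubiquitinated cargo to autophagosomes, rose 3.93-fold, from 9.56, 9.55 and 9.60 to 11.53, 11.51 and 11.60. GABARAPL1, a protein of the autophagosome membrane, rose by 1.89, and the protease CTSH fell by 1.15. Of 18 measured heat shock chaperones 2 rose and 9 fell (median -0.23). HSPA1A, HSPA1B and HSF2 were on the list but not among the measured genes, so the counts leave them out. HSPB1 fell by 0.77 and HSPA6, an inducible HSP70, rose by 0.81. With all 24 arrays in 1 fit, 4 heat shock genes fell in place of 9, HSPA6 did not pass, and 12 proteasome genes rose in place of 19.

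Cytoskeletal genes moved in both directions. Of 16 tubulins 2 rose and 7 fell (median -0.09), with TUBB4B at -0.69 and TUBB4A at 0.60. Among 20 microtubule-associated genes 7 rose and 5 fell. MAP1B rose by 1.89, from 6.17, 6.21 and 6.67 to 7.92, 8.31 and 8.50, and MAP2 by 1.66, both proteins best known from neurons. TTLL7, which adds glutamate to tubulin, rose by 1.85, and STMN1, which takes microtubules apart, fell by 1.28.

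Cell death genes showed no single direction, and over all genes 16.2% rose and 20.9% fell. Pro-apoptotic members of the BCL2 family gave 2 rises and 2 falls among 11 (median -0.09): BBC3 rose by 0.43 and HRK by 0.42, BCL2L11 fell by 0.80 and BID by 0.29. The calls of BBC3 and BID were lost with all 24 arrays in 1 fit, and BBC3 also without the second combination or the second vehicle array. Of 7 anti-apoptotic genes 2 rose and 1 fell, and BCL2L1 rose by 0.77. Among 20 death ligands, receptors and caspases 2 rose and 6 fell. CASP4, an inflammatory caspase, rose 3.0-fold, from 8.0, 7.96 and 7.97 to 9.43, 9.59 and 9.65. APAF1, the scaffold of the apoptosome, fell by 0.75.

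Inflammatory mediators rose in part. Of 18 chemokines 7 rose and 0 fell (median 0.17). CXCL8, which attracts neutrophils, read 7.99, 7.59 and 8.17 in vehicle and 10.07, 10.14 and 10.07 in the combination. CXCL2 rose by 1.80, CXCL1 by 1.47 and CXCL3 by 1.45, and these 4 genes share a cluster on chromosome 4. Interleukin-1 and interleukin-6 genes gave 10 rises and 3 falls among 19 (median 0.34). IL24 went from 5.24, 5.89 and 5.88 to 8.36, 8.89 and 8.87, IL1A rose by 2.06, IL1B by 1.34 and the antagonist IL1RN by 1.67. Of 16 NF-kB pathway genes 5 rose and 4 fell (median -0.04), with NFKBIZ at 0.88 and NFKB1 at -0.67. The falls numbered 1 with all 24 arrays in 1 fit and 2 without the first vehicle array or under quantile normalization.

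Antigen presentation genes were lower in part, and interferon genes moved in both directions. Of 11 antigen presentation genes 5 fell and 0 rose (median -0.17). PSMB9 and PSMB8, subunits of the immunoproteasome that cuts peptides for display, fell by 0.95 and 0.94, the peptide-loading factor TAPBP by 0.55 and B2M by 0.31. Under quantile normalization 3 fell, and B2M did not pass. Interferon-stimulated genes gave 4 rises and 6 falls among 26 (median -0.05), near the shares of all genes that rose (16.2%) and fell (20.9%). IFITM1, which blocks virus entry, fell 2.81-fold, and IFI44 rose 2.16-fold. With all 24 arrays in 1 fit 2 rose and 2 fell. Of 15 complement genes 5 rose and 1 fell. Beside C1S, the extracellular chaperone CLU rose by 1.64, CD55, which shields cells from complement, by 1.60, and CFB by 1.38.

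Mesenchymal and TGF-beta genes were mostly lower. Of 16 mesenchymal genes 9 fell and 3 rose (median -0.33). CDH2 went from 7.89, 8.16 and 8.08 to 5.50, 5.86 and 5.65, and the filament gene VIM from 8.60, 8.62 and 8.27 to 6.81, 6.78 and 6.91. FN1, the gene of fibronectin, fell by 1.13. Among 21 TGF-beta ligands, receptors and targets 11 fell and 5 rose (median -0.34). THBS1, which can activate latent TGF-beta, fell 4.24-fold, from 12.40, 12.33 and 12.51 to 10.43, 10.38 and 10.19, CCN1 by 1.31 and the signal carrier SMAD3 by 0.95. The rises numbered 3 without the first combination array, the second combination array or the third vehicle array. Of 29 collagen and matrix genes 8 rose and 9 fell (median 0.02), with LOXL2, which crosslinks collagen, at -2.11 and COL12A1 at -1.71.

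Genes of epithelial attachment were read in 3 lists. Of 7 genes of laminin-332 and the hemidesmosome, which tie epithelium to the basement membrane, 6 rose and 0 fell (median 0.41). LAMB3 read 10.75, 10.88 and 10.98 in vehicle and 12.49, 12.61 and 12.54 in the combination, and ITGA3 rose by 0.82. Among 14 claudins and tight junction genes 7 rose and 1 fell. CLDN1 rose by 1.56 (SE 0.187) with vehicle arrays spread from 6.05 to 7.0, CLDN4 by 1.34, and CDH1, the gene of E-cadherin, by 0.44. Desmosome genes gave 4 rises and 3 falls among 12, with DSG3 at 1.22 and DSC3 at -1.14.

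Markers of breast cell types gave rises and falls in like number. The labelled line was compared with its marker lists: of 11 basal markers 4 rose and 4 fell (median -0.01), and of 21 luminal markers 5 rose and 3 fell (median -0.03). The basal keratin KRT5 stood at 10.45, 10.52 and 10.31 in vehicle. CAV1, counted among the basal markers, fell 3.45-fold, MME by 1.34, and LAMB3 rose as above. Of the luminal markers AGR2 rose, EHF, an epithelial transcription factor, rose by 1.47, and GATA3 fell by 1.03, from 7.51, 7.34 and 7.43 to 6.46, 6.41 and 6.33. Luminal rises numbered 3 in place of 5 without the first or the second combination array and 2 with all 24 arrays in 1 fit, where 2 basal markers rose in place of 4. Keratins gave 2 rises and 2 falls among 14, near the shares of all genes that rose (16.2%) and fell (20.9%). Genes tied to inflammatory breast cancer and to angiogenesis gave 2 rises and 6 falls among 16 (median -0.02). The growth factor ANGPT1 fell by 1.35 and ALDH1A3, an aldehyde dehydrogenase, by 0.96.

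Markers of cells that a culture of this line should not hold were also read. Fibroblast markers gave 0 rises and 3 falls among 12, and their median level was 4.97 to 5.12 in the vehicle arrays and 5.00 to 5.17 in the combination arrays. The 3 that fell were FAP, COL6A3 (-1.41) and DCN (-0.86), and they moved with the mesenchymal genes; their part in that result was not tested. Leukocyte markers gave 1 rise among 12, CD68 by 0.92, with a median level of 4.54 to 4.61 in vehicle and 4.46 to 4.59 in the combination. Endothelial markers gave 0 rises and 0 falls among 10 by limma, 0 also at an unadjusted p under 0.05, with median levels of 4.36 to 4.50 and 4.43 to 4.57.

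Genes of energy metabolism gave more falls than rises. Of 25 genes of oxidative phosphorylation 14 fell and 0 rose (median -0.26), SDHA by 0.78 and NDUFA9 by 0.74. Under quantile normalization the median was -0.11. Of 25 glycolysis and hypoxia genes 11 fell and 1 rose (median -0.19). LDHA, which makes lactate, fell by 0.79 and NDRG1 rose by 1.05, a call lost with all 24 arrays in 1 fit. Of 22 cytosolic ribosomal protein genes 1 rose and 3 fell, and of 17 ABC transporters 5 rose and 5 fell, with ABCG2, a drug exporter, at -1.67 and the lipid transporter ABCA12 at 1.52.

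In the EGFR family the ligands showed the largest rises. Of 16 EGFR family genes 6 rose and 4 fell. EPGN read 7.04, 6.82 and 7.41 in vehicle and 10.17, 10.05 and 10.52 in the combination, HBEGF rose 6.17-fold, and LRIG1, which lowers receptor levels, fell by 1.61. EGFR itself differed by -0.01 (adjusted p from limma 0.9177) and ERBB2 fell by 0.32, a call lost under 7 alternative settings. With all 24 arrays in 1 fit the falls numbered 1, and 2 without the second combination array. Among 20 AP-1 and immediate early genes 9 rose and 3 fell (median 0.19). DUSP5 and DUSP6, phosphatases that restrain the ERK kinases, rose by 1.47 and 1.18, and FOS fell by 1.14 (SE 0.28). Without the third vehicle array the falls numbered 5.

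Estrogen receptors and their known targets were read next, since the combination held estradiol. Of 10 steroid receptors and cofactors 1 rose and 3 fell (median -0.02). ESR1 stood at 4.91, 4.61 and 4.75 in vehicle, 4.72, 4.72 and 4.75 in the combination, and the groups overlapped (limma adjusted p = 0.8582). ESR2 differed by -0.09, GPER1 by 0.16 and PGR, the progesterone receptor and a classic estrogen target, by -0.01, and 0 of these 3 passed. NR3C1, the glucocorticoid receptor, fell by 0.75 in cells whose medium held hydrocortisone. Of 24 estrogen response genes 5 rose and 9 fell (median -0.09), with the carbonic anhydrase CA12 at -0.89, IGF1R at -0.87 and RERG at -0.87. CG-1521 alone against vehicle gave 4 rises and 8 falls in this list (median -0.08). Estradiol alone against vehicle gave 0 and 0, as did the combination against CG-1521 alone. TFF1, a secreted estrogen target, read 5.26, 5.50 and 5.53 in vehicle and 5.87, 5.94 and 5.57 in the combination (0.36, limma adjusted p = 0.01886), and that call was lost under 5 alternative settings. GREB1 differed by 0.07 and did not pass. The 5 rises in the list became 3 without the first or the second combination array, and 2 with all 24 arrays in 1 fit.

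What estradiol added to CG-1521 was tested directly, by comparing the combination with CG-1521 alone. With limma 0 of 18417 genes (0.0%) passed at an adjusted p under 0.05, and 1156 had an unadjusted p under 0.05. The smallest adjusted p was 0.1399. The largest difference in either direction was 0.70 (log2), and the 95% interval of 18410 genes lay within a 2-fold change each way. The median interval reached 0.21 to either side. Quantile normalization, centring, the replicate block, robust variances, removal of dim genes, the mean of probe sets, all probe sets, the other choices of arrays in the fit and the removal of any 1 of the 6 arrays also gave 0. A p above the threshold does not show that the treatments act alike.

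The same comparison was read in the genes that the combination changed most. Over the 889 genes past 2-fold against vehicle, the combination and CG-1521 alone differed by a median of 0.07 in size and at most by 0.61, in CCDC88C. Beyond 0.5 there was 1 such gene, and 888 had intervals within 2-fold. The median of combination minus CG-1521 was -0.04 in the 294 rises and -0.05 in the 595 falls. CG-1521 alone against vehicle changed 6319 genes (34.3%), 2655 (14.4%) upward and 3664 (19.9%) downward, and both comparisons use the same vehicle arrays. KIF20A fell by 2.80 with CG-1521 and by 2.95 with the combination, CDKN1A rose by 1.45 and 1.47, and SLC7A11 by 3.37 and 3.43. Metallothioneins were counted as 4 falls and 0 rises among 10 with the combination (median -0.24) and 0 and 0 with CG-1521 alone (median -0.05). MT1G, which binds zinc, read 9.35, 9.52 and 9.28 in vehicle, 9.26, 9.57 and 9.20 with CG-1521 and 9.01, 8.78 and 8.71 with the combination. Its difference between the latter 2 groups was -0.51 (SE 0.108), the arrays did not overlap, and it did not pass adjustment. MT2A and MT1E differed by -0.18 and -0.33 between the same groups and did not pass either.

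The 3 genes with the smallest p between the combination and CG-1521 were ZNF674, IMMP1L and PRDX6-AS1. IMMP1L, part of a protease of the inner mitochondrial membrane, read 6.20, 6.14 and 6.10 in vehicle and 5.42, 5.46 and 5.62 in the combination, and differed from CG-1521 by -0.63 (SE 0.105). ZNF674 differed by -0.48 and PRDX6-AS1 by 0.63, both at levels near the lower end of the scale. None of the 3 passed adjustment.

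Estradiol alone was read as the other arm of the combination. Against vehicle 0 of 18417 genes (0.0%) passed with limma, 845 had an unadjusted p under 0.05, and the smallest adjusted p was 0.8627. The interval of 18407 genes lay within 2-fold each way. Without the first vehicle array 1 gene passed, MTND2P28, and every other setting tried gave 0. EDN1, the gene of the vessel-constricting peptide endothelin-1, was among the 3 smallest p, with ORM1 (0.41) and LRRC28 (-0.32). It read 5.93, 6.12 and 5.93 in vehicle, 5.28, 5.58 and 5.55 with estradiol, 5.56, 5.58 and 5.64 with CG-1521 and 4.76, 5.19 and 5.06 with the combination. EDN1 was picked for its small p between estradiol and vehicle, so the gap between those arrays follows in part from the choice. The 3 CG-1521 arrays also lay below vehicle, and the combination arrays below those of either single agent. All these readings use the same vehicle arrays. EDN1 fell by 0.99 (SE 0.11, limma adjusted p = 2.896e-06) with the combination, and its difference of -0.53 with estradiol alone did not pass.

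**Figure D3:**
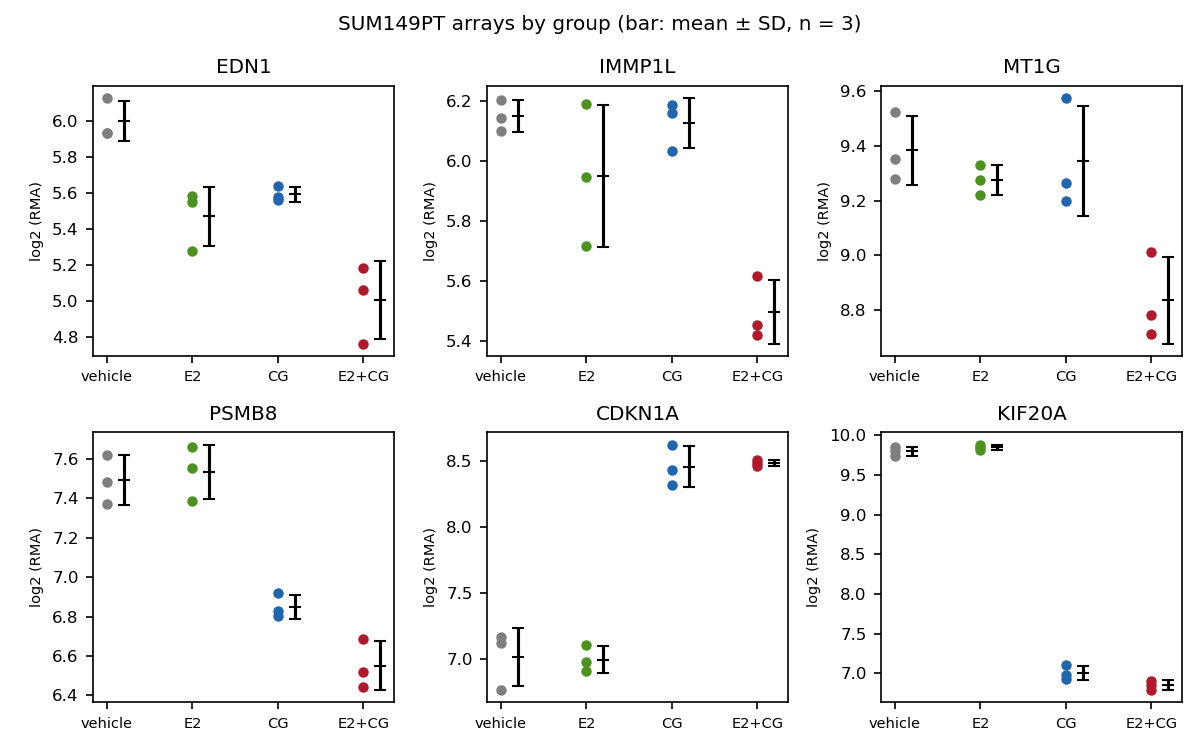
Log2 expression of 6 genes in the 4 SUM149PT groups, vehicle, estradiol (E2), CG-1521 (CG) and both (E2+CG), with 1 point per array and a bar for the mean ± SD of 3 arrays; each panel has its own axis, which does not start at 0. CDKN1A and KIF20A lie at like levels with CG-1521 alone and with both, whereas EDN1, IMMP1L and MT1G read lowest with both. EDN1 and IMMP1L were picked for a small p in these same arrays. Between CG-1521 alone and both, 0 genes passed.

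Whether the combination differed from the sum of its 2 agents on the log2 scale was tested as an interaction. With limma 0 of 18417 genes (0.0%) passed, 1046 had an unadjusted p under 0.05 and the smallest adjusted p was 0.7616. The largest interaction was 1.37 in size, and 18331 genes had intervals within 2-fold. Without the first vehicle array 1 gene passed, MTND2P28, as did 1, SNORA62, without the third estradiol array, and every other setting tried gave 0. KLF15 (0.53), GALC (0.58) and PRDX6-AS1 had the smallest p. The interaction of EDN1 was -0.06, so its difference with both agents lay near the sum of the separate differences. That sum includes the estradiol difference for which EDN1 was picked and which did not pass.

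**Figure D4:**
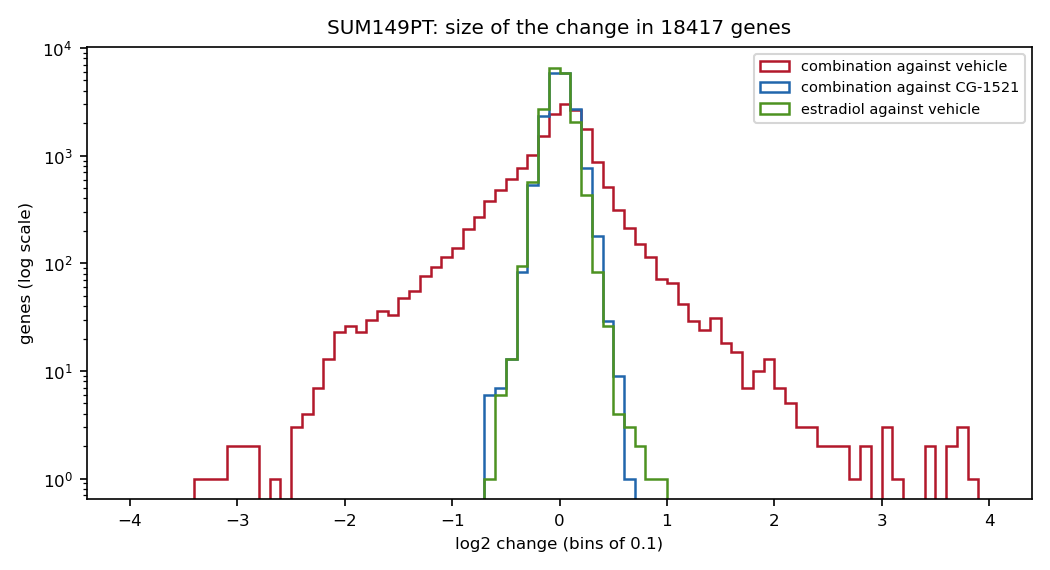
Number of genes (log axis) by log2 change in bins of 0.1 in SUM149PT, for the combination against vehicle (red), the combination against CG-1521 (blue) and estradiol against vehicle (green). The first spreads from -3.39 to 3.86, and the others stay within 0.70 and 0.99 of 0.

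The response was then set against that of SUM190PT to the same pair of agents. The difference between the 2 responses, tested in a fit over all 24 arrays, passed in 3310 genes (18.0%), of which 1360 (7.38%) were higher and 1950 (10.6%) lower in SUM149PT. Without the third vehicle array of SUM190PT the count was 2764. In SUM190PT itself 4242 genes (23.0%) changed with the combination (11.1% up, 12% down), 2079 in a fit of only the groups compared and 4022 without that array. Line, dose and medium cannot be told apart in these counts. The SUM190PT counts per gene list given below come from fits that share their spread with the SUM149PT arrays. They were not repeated in a fit of only the groups compared, where the total was 2079 in place of 4242. Fewer genes per list may therefore pass in such a fit.

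Sterol synthesis gave the widest separation. The response of 18 of 19 sterol genes was higher in SUM149PT and 0 were lower, with or without that array. In SUM190PT 18 of the 19 fell and 0 rose (median -0.99; 17 and -1.04 without it), where SUM149PT had a median of 0.75. MSMO1 rose by 2.31 in SUM149PT and fell by 0.93 in SUM190PT, HMGCS1 rose by 2.15 and fell by 0.77. Fatty acid genes differed in the same direction in 11 of 16 (1 opposite), or 9 (1 opposite) without the array, and SCD rose by 0.93 in SUM149PT where it fell by 1.26 in SUM190PT. Heat shock chaperones differed the other way, lower in SUM149PT in 16 of 18 measured, with or without the array. HSPA1A, HSPA1B and HSF2 were not measured. Their median was 1.23 in SUM190PT, where 17 rose (1.10 and 16 without it). HSPA6 rose by 0.81 in SUM149PT and by 4.85 in SUM190PT, and HSPB1 fell by 0.77 in one and rose by 1.56 in the other.

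The response of endoplasmic reticulum stress genes was higher in SUM149PT in 15 of 28 and lower in 0. Without the third SUM190PT vehicle array it was higher in 12 and lower in 1. In SUM190PT 6 of the 28 rose and 7 fell (median 0.08), or 9 and 7 without that array (median 0.05). AGR2 rose by 3.75 in SUM149PT and differed from vehicle by 0.17 in SUM190PT. Interferon-stimulated genes were lower in response in 11 of 26 and higher in 0 with or without that array, and their SUM190PT median was 0.47 with it and 0.55 without. TGFB2 fell by 2.89 in SUM149PT and rose by 0.98 in SUM190PT, and THBS1 fell by 2.08 where SUM190PT had a difference of 0.65 that did not pass.

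Kinetochore genes gave no call between the lines. For the 35 genes 0 differences passed in limma in either direction, 1 had an unadjusted p under 0.05, and 1 passed under quantile normalization or centring of the arrays. In SUM190PT 30 of them fell (median -1.33), and 33 without the third vehicle array (median -1.77). The median difference was -0.24 with all arrays and 0.18 without the third SUM190PT vehicle array, so its direction rests on that array. NRF2 targets rose in 15 of 20 in SUM190PT (median 0.68) and 0.63 was their median in SUM149PT. Between the lines 3 responses were higher and 5 lower in SUM149PT, and 4 higher and 3 lower without that array, so the balance rests on it. AKR1B10 rose by at least 3.76 in SUM149PT and by 3.44 in SUM190PT, EPGN by 3.16 and 3.22 and SQSTM1 by 1.97 and 1.86. In each of these 3 genes the difference between the lines did not pass with or without the array.

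**Figure D5:**
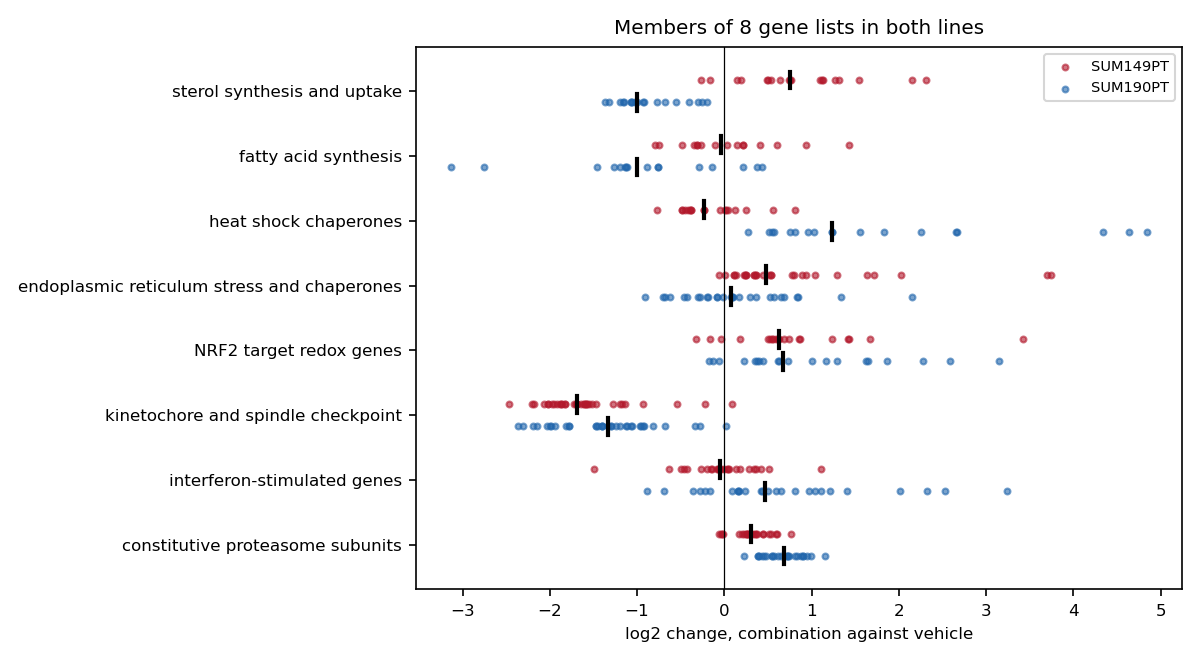
Log2 change with the combination against vehicle of each measured member of 8 gene lists, in SUM149PT (red) and in SUM190PT (blue), with a black bar at each list's median. Of 19 sterol genes 17 lie above 0 in SUM149PT (median 0.75) and 19 below it in SUM190PT (median -0.99). Of 18 heat shock genes 11 lie below 0 in SUM149PT and 18 above it in SUM190PT, and 34 of 35 kinetochore genes lie below 0 in each line.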

How the data were processed

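The arrays were Affymetrix Human Gene 1.0 ST arrays of column-purified total RNA that was amplified and biotin-labelled, per the labels' protocols. The authors deposited log2 expression values made with RMA in Affymetrix Expression Console, per the submitters' processing notes; the versions, and whether both lines were normalized together, are not given in the sources used here. RMA subtracts background, makes the arrays' distributions alike and summarizes probes, so a shift shared by all genes would not be seen. All 24 columns were used, with 0 missing values and 0 columns left over.

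Of 33297 probe sets 19460 carried 1 gene symbol in the platform annotation, 1754 carried several and 12083 had no entry. For 769 genes measured by several probe sets the one with the highest mean was used. The table then held 18417 genes, dim ones included, and 19429 probe sets could be matched to RefSeq.

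Groups were taken from the titles. limma 3.58.1 in R 4.3.3 (lmFit and eBayes, two-sided) was fitted over the 12 SUM149PT arrays, so that 4 groups share 1 spread, and over all 24 for comparisons with SUM190PT. Benjamini-Hochberg adjustment ran over 18417 genes, with a threshold of 0.05. The fit was tested on simulated data. Replicate numbers were checked as pairs by correlating deviations from group means, and not all 3 pairs exceeded 0.1 in any of the 3 SUM149PT comparisons checked, so they were not treated as paired. Tables used Python 3.11.15, pandas 2.3.3, numpy 2.4.6 and scipy 1.17.1, and figures matplotlib 3.10.9.

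The comparison and the 60 gene lists, with 1080 distinct genes of which 986 are measured, were chosen with earlier results of these data known; the others are not analysed here. Genes were named by rule: the 20 largest rises and falls among genes that passed with groups apart, up to 4 per list, the 3 smallest p where fewer than 3 passed, 6 and 6 between the lines, and 14 genes looked up always. Promoters were the 250 bases before the start site in a RefSeq table. Alternatives were the replicate block, other arrays in the fit, quantile normalization, centring, no dim genes (the dimmest 50%), the mean of probe sets, all probe sets, trend and robust variances, and leaving out each array. The number of arrays limits the precision.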

Additional observations from a re-analysis of the deposited data

Results flagged for a closer look

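The combination response differed between the lines, by the test of the difference itself, in 3310 genes, and the 12 with the widest difference are given here as the SUM149PT response minus that of SUM190PT (log2). The response was higher in SUM149PT for CYP4Z1 (4.13), SCGB1D2 (3.96), FGG (3.77), LRRC31 (3.70), ELAPOR1 (3.59) and AGR2 (3.58). It was lower for CRYAB (-4.62), HSPB8 (-4.09), HSPA6 (-4.04), BPIFC (-3.99), CASP14 (-3.94) and TGFB2 (-3.86). For CYP4Z1, SCGB1D2, FGG and LRRC31 the SUM149PT differences were 0.09 to 0.27 and did not pass, and the fall lay in SUM190PT (-3.50 to -4.04). CRYAB and HSPB8, small heat shock proteins, differed by 0.01 and 0.24 in SUM149PT, which did not pass, and rose by 4.63 and 4.34 in SUM190PT. AGR2, CASP14 and TGFB2 changed more in SUM149PT than in SUM190PT. Without the third vehicle array of SUM190PT all 12 kept their direction and passed, at 3.59 for CYP4Z1 and -4.61 for CRYAB. Line, dose and medium changed together and cannot be told apart.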

How the results depend on the processing

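The count of genes changed by the combination, 6848, ran from 5245 with all 24 arrays in 1 fit to 8716 over all probe sets, and from 5955 to 6530 when an array was left out. The replicate number as a block gave 6813 and moved no count over all genes by over 1.5 times, while rises among tubulins went from 2 to 4. Numbers paired the arrays by no label, and same-numbered deviations correlated at -0.013, -0.052 and 0.1 for the combination and vehicle; each combination array correlated best with the CG-1521 array of its own number (0.144, 0.097 and 0.11), a hint from the data. Estradiol against vehicle, 0 in the text, gave 0 to 1 when an array was left out, and the interaction also 0 to 1. For SUM190PT, 4242 became 2079 with only the groups compared, and ran from 2943 to 4022 with an array left out. The difference between lines ran from 2634 to 4020 with an array left out. Of 242 named genes, 216 kept direction and call in every setting and 26 lost the call in at least 1, over 3356 values of which 3270 stayed the same and 0 reversed. Lost most often were RPL8, TEX15, ERBB2, NCOA2, ESRRB, MLXIP, RPL22 and TFF1. Leaving out the dimmest 50% of genes also dropped aldo-keto reductases, by their mean over all 12 SUM149PT arrays, treated ones included. The median of those left was 3.28, against 0.32 over all 9 measured, so these medians cover different genes. Under quantile normalization the median of ATF4 genes was 0.40. With 3 arrays per group the median 95% interval reached 0.21 to either side.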
